A study of Mus musculus with 6 samples.

Results

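The 8 genes described here are a chosen part of the *Slc5a* and *Slc2a* families, which include hexose carriers of the renal tubule. The 8 are the sodium-glucose cotransporters *Slc5a1* (SGLT1), *Slc5a2* (SGLT2) and *Slc5a10* (SGLT5), and the facilitative transporters *Slc2a1* (GLUT1), *Slc2a2* (GLUT2), *Slc2a4* (GLUT4), *Slc2a5* (GLUT5) and *Slc2a9* (GLUT9). They were picked by gene symbol from a transcript table of 6 mouse kidneys. The rule used no measured value, but the genes were chosen with earlier results of these data known. All 8 were found, with 20 transcript entries among the 54721 entries of the table, which name 23276 genes. Of the 20 entries, 11 carry a RefSeq mRNA identifier and 9 were assembled by the authors from the reads.

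The kidneys came from 3 *Pkd1*F/RC SKO mice (KspCre; *Pkd1* F/RC) and 3 *Pkd1*F/RC DKO mice (the same alleles with miR17~92 F/F), all labelled as postnatal day 22. Both groups carry the RC allele of *Pkd1*, a germline hypomorphic mutation, and a floxed *Pkd1* allele that the KspCre transgene recombines in renal tubules. The DKO mice carry in addition 2 floxed copies of the miR-17~92 cluster, so the groups differ in the cluster and neither group is a non-cystic control. Total RNA of whole kidneys was sequenced as strand-specific libraries.

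The value used for each transcript is the authors' mean log2 CPM, a count scaled to the size of the library. It is a single value over the 6 kidneys of both groups, given here as CPM. Levels of single kidneys were not analysed here, so the levels below are those of cystic kidneys of both genotypes. They carry no error and support no test, and depth per kidney is unknown here. The authors' own comparison of SKO and DKO kidneys was not used, so no difference between the groups is given here. The deletion of *Pkd1* or of the cluster could not be checked in each sample. In whole-kidney RNA, fewer cells of a type and less RNA per cell cannot be told apart.

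Glucose filtered at the glomerulus is taken back almost entirely by the proximal tubule. SGLT2 carries most of it across the brush border of the early, convoluted part, together with sodium, and SGLT1 recovers the rest in the late, straight part. GLUT2 lets glucose leave early proximal cells on the basolateral side. GLUT1 is the basal glucose transporter of many cell types, including late proximal and more distal tubule cells and endothelium.

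Among the 3 sodium-coupled carriers, *Slc5a2* was the most abundant per kilobase of transcript and *Slc5a1* the least. The RefSeq entry of *Slc5a2*, the low-affinity, high-capacity carrier of the early proximal tubule, had a mean of 108 CPM. Its 2 assembled entries had means of 80.6 and 34.2 CPM, so the entries of this gene spanned 3.16-fold, the widest range of the 8 genes. *Slc5a1*, the high-affinity carrier of the late proximal tubule, had a single entry at 33.3 CPM. Because longer transcripts collect more reads, levels of different genes were compared only after division by transcript length. *Slc5a2* then stood at 47.5 CPM per kilobase on a transcript of 2277 nucleotides, and *Slc5a1* at 8.11 CPM per kilobase on 4104 nucleotides. The level of the early form was 5.86 times that of the late form on this scale, 3.23 times when coding length was used and 12.1 times when the entries of each gene were summed.

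*Slc5a10* encodes a cotransporter of the renal brush border that prefers mannose and fructose to glucose. Its 3 entries lay between 33.7 and 33.8 CPM. At 14.9 CPM per kilobase it was second to *Slc5a2* among the 8 genes, 1.84 times the level of *Slc5a1* and below *Slc5a2*, which was 3.18 times higher. With coding length it moved to the fourth place, behind *Slc2a2* and *Slc2a1*, and its ratio to *Slc5a1* was 1.13, against 5.52 with summed entries.

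**Figure D1:**
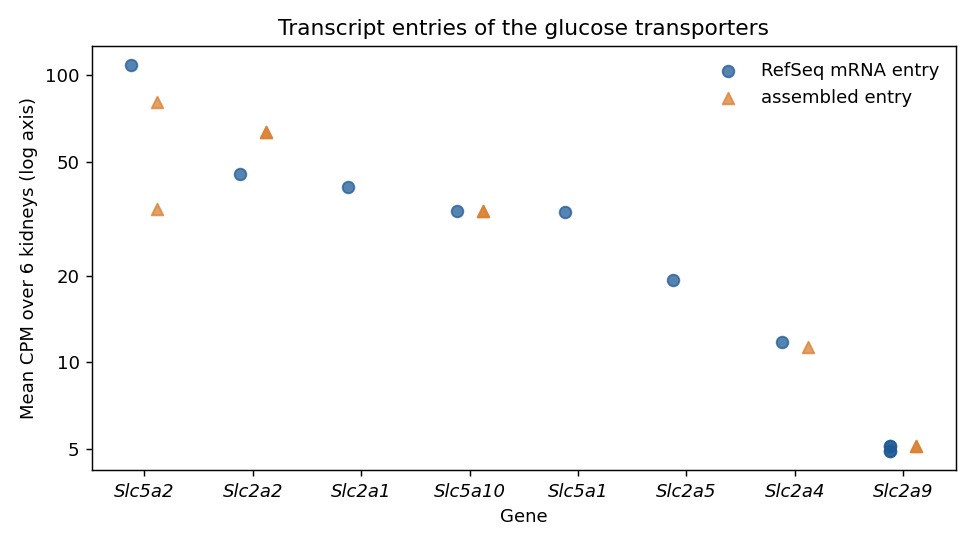
Mean CPM over the 6 kidneys (log axis) of each transcript entry of the 8 genes, with circles for RefSeq mRNA entries and triangles for assembled entries; there are no error bars because the table holds 1 pooled value per entry. The entries of *Slc5a2* spread from 34.2 to 108 CPM, the RefSeq entry of *Slc2a2* sits below its 2 assembled entries, and the entries of *Slc5a10*, *Slc2a4* and *Slc2a9* nearly coincide.

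On the facilitative side, *Slc2a1* had the highest level per kilobase and *Slc2a2* followed, an order that depended on the entry and the length used. The only entry of *Slc2a1* had a mean of 40.8 CPM, or 12.5 CPM per kilobase over 3260 nucleotides. The RefSeq entry of *Slc2a2* had 45.4 CPM, which gave 8.16 CPM per kilobase because this transcript is 5569 nucleotides long, the longest of the 8. The 2 assembled entries of *Slc2a2* had 63.6 and 63.5 CPM, 1.40 times the RefSeq entry at the highest. The level of *Slc2a2* was therefore 0.652 times that of *Slc2a1* per kilobase of the RefSeq transcripts. It was 0.913 times with the highest entry of each gene, divided by the RefSeq length, and 1.05 times with coding length. The order of GLUT1 and GLUT2 transcripts in these kidneys was not resolved.

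Per kilobase of the RefSeq transcripts, *Slc2a2* and *Slc5a1* stood at 8.16 and 8.11 CPM, but *Slc2a2* was 1.74 times *Slc5a1* with coding length and 3.82 times with summed entries. In the early pair, *Slc5a2* had 5.83 times the level of *Slc2a2* per kilobase of the RefSeq transcripts, 1.86 times with coding length, 3.10 times with the median entry and 3.16 times with summed entries. In the late pair, *Slc5a1* had 0.648 times the level of *Slc2a1*. *Slc2a1* is also transcribed outside the proximal tubule, and its level per kilobase covers every cell type of the kidney.

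*Slc2a5*, the fructose transporter of the apical membrane, had 1 entry at 19.4 CPM. Its level of 6.15 CPM per kilobase was 0.754 times that of *Slc2a2*, which also carries fructose, and this ratio was 0.447 with coding length and 0.199 with summed entries. The level of *Slc5a10* was 2.43 times that of *Slc2a5*, 1.46 times with coding length and 7.27 times with summed entries. *Slc2a9*, known mainly as a urate transporter, was the least abundant gene per kilobase under every setting but summed entries, which put *Slc5a1* and *Slc2a5* below it. It had 6 entries between 4.92 and 5.12 CPM. Its RefSeq entry with the highest mean gave 1.42 CPM per kilobase, and the ratio of *Slc5a2* to it was 33.5, against 17.0 with coding length and 11.7 with summed entries.

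*Slc2a4*, the insulin-responsive transporter known best from fat and muscle, was measured at 11.8 CPM in its RefSeq entry and at 11.3 CPM in the assembled entry. This equals 4.67 CPM per kilobase, and the ratio of *Slc2a1* to it was 2.68, against 1.37 with summed entries. Markers of both tissues were read beside it. The 3 skeletal muscle genes (*Ckm*, *Acta1* and *Myh4*) lay between 0.0263 and 0.0890 CPM, and *Myh4* was at the lowest mean level in the table. The 3 adipocyte genes were higher, with 5.82 CPM for *Adipoq*, 4.49 CPM for *Cidec* and 2.14 CPM for *Plin1*. Per kilobase these were 4.51, 2.64 and 1.12, so *Slc2a4* lay just above the highest of the 3 fat markers, and the part of fat around the kidney in its level was not tested.

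Endothelium, which also carries GLUT1, was present in the RNA. *Pecam1*, *Cdh5* and *Kdr* had 16.1, 11.1 and 4.15 CPM per kilobase, against 12.5 for *Slc2a1*. Blood was present too. The globins *Hba-a1* and *Hbb-b1* had 104 and 74.9 CPM per kilobase. The part of endothelial and blood cells in the level of *Slc2a1* was not tested.

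The 8 genes were then placed in their families. Of 13 *Slc5a* genes with a RefSeq mRNA and a length, *Slc5a2* ranked second. Above it was *Slc5a12*, a lactate cotransporter of the proximal tubule, at 79.0 CPM per kilobase. The lactate cotransporter *Slc5a8* (17.5) and the myo-inositol cotransporter *Slc5a3* (14.7) stood on either side of *Slc5a10*. In CPM, *Slc5a3* stood above *Slc5a2*, at 160 against 108, but its transcript has 10913 nucleotides. Places and shares in the *Slc5a* and *Slc2a* families are given for full transcript length only, and they may differ with coding length. The 3 *Slc5a* genes described here made up 36.9% of the summed level per kilobase of the *Slc5a* family. The RefSeq entries of 4 other members, *Slc5a4a*, *Slc5a4b*, *Slc5a5* and *Slc5a7*, were below 0.1 CPM per kilobase.

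Of 12 *Slc2a* genes, *Slc2a1*, *Slc2a2*, *Slc2a5* and *Slc2a4* held the first 4 places, and the 5 genes described here accounted for 88.0% of the family's summed level per kilobase. By its entry with the highest mean, *Slc2a9* ranked sixth, between *Slc2a8* at 1.59 and *Slc2a12* at 1.22 CPM per kilobase. Its shortest RefSeq transcript, at 3.81, stood above *Slc2a8*. Of the 1296 nucleotides of this transcript 1293 are coding, and its mean was 4.94 CPM. Its level per kilobase is therefore close to one by coding length, unlike that of *Slc2a8*. *Slc2a3*, the high-affinity transporter of neurons, had 0.207. *Slc2a7* had 0.0440 CPM, only 1.67 times the lowest mean level in the table.

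**Figure D2:**
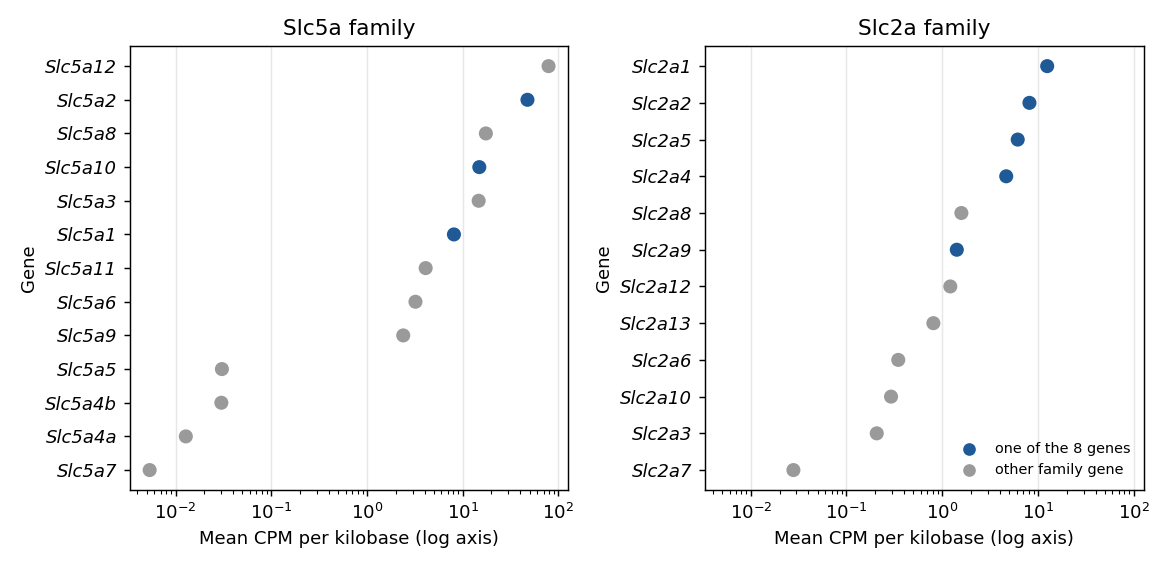
Level per kilobase of the RefSeq mRNA entry (mean CPM over the 6 kidneys divided by transcript length, log axis) of 13 *Slc5a* genes on the left and 12 *Slc2a* genes on the right, with the 8 genes of this report in blue. *Slc5a2* lies second to *Slc5a12*, and *Slc2a1*, *Slc2a2*, *Slc2a5* and *Slc2a4* lead the *Slc2a* family.

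Of 20167 genes with a RefSeq mRNA and a length, 97.4% were below *Slc5a2* per kilobase. The share was 90.6% for *Slc5a10*, 88.9% for *Slc2a1*, 82.9% for *Slc2a2*, 82.8% for *Slc5a1*, 77.8% for *Slc2a5* and 72.0% for *Slc2a4*. *Slc2a9*, with 50.2% by its entry with the highest mean, sat at the median of all genes, which was 1.40 CPM per kilobase. Its shortest RefSeq transcript, at 3.81 CPM per kilobase, stood above that median, but it is almost all coding sequence and the median rests on full transcript length. Above a filter of 1 CPM, which left 12499 genes and which all 8 transporters passed, the shares ran from 19.6% for *Slc2a9* to 95.8% for *Slc5a2*.

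**Figure D3:**
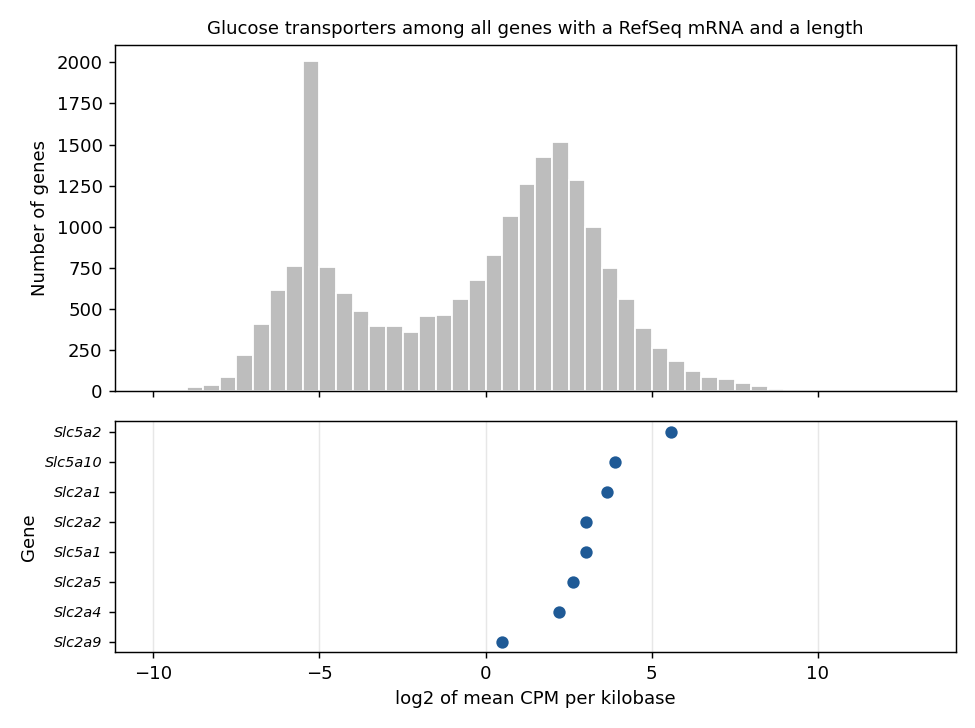
Upper panel, number of genes by log2 of mean CPM per kilobase over 20167 genes with a RefSeq mRNA and a length, in which the peak on the left holds genes near the lowest mean level; lower panel, the 8 genes on the same axis. *Slc5a2* lies in the upper tail with 97.4% of genes below it, and *Slc2a9*, by its RefSeq entry with the highest mean, lies at the median.

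The labelled tissue was checked against marker genes. All 8 proximal tubule markers were present, from 2.71 CPM per kilobase for *Slc22a7* to 423 for *Slc34a1*, the phosphate cotransporter of the brush border. *Slc5a2* stood above the endocytic receptor gene *Lrp2* (36.7) and the anion transporter gene *Slc22a6* (20.5). *Slc7a13*, a marker of the straight segment in which SGLT1 resides, had 13.5 CPM per kilobase. *Umod* of the thick ascending limb had 374, *Slc12a3* of the distal convoluted tubule 43.0 and *Aqp2* of the collecting duct 52.2. The podocyte gene *Nphs1* had 2.22. The liver genes *Alb*, *Serpina1a* and *Apoa2* had 6.58, 4.58 and 2.58, so *Alb* stood above *Slc2a5* at 6.15. The source of these transcripts was not tested.

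Genes that work with the transporters were abundant. *Pdzk1ip1* (MAP17), the accessory protein that SGLT2 needs for activity, had 130 CPM per kilobase, and the scaffold gene *Pdzk1* had 161. The sodium pump that drives both cotransporters was higher still, with 498 for *Atp1b1* and 764 for *Fxyd2*. *Hnf4a*, a transcription factor of proximal tubule cells, stood at 44.1 CPM per kilobase. *Txnip*, a glucose-induced gene whose product draws GLUT1 from the cell surface, had 81.5.

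The position of each gene was taken from its RefSeq transcript in mm10. *Slc5a2* lies on chromosome 7 from 128265676 to 128272430 (forward strand, 14 exons) and *Slc5a1* on chromosome 5 from 33104219 to 33162870 (forward strand, 15 exons). *Slc5a10* lies on chromosome 11 from 61672782 to 61720799 (reverse strand, 16 exons). *Slc2a1* lies on chromosome 4 from 119108711 to 119137983 (forward strand, 10 exons), and *Slc2a5* on the same chromosome from 150119283 to 150144169 (forward strand, 14 exons). *Slc2a2* lies on chromosome 3 from 28697903 to 28731359 (forward strand, 11 exons). *Slc2a4* lies on chromosome 11 from 69942543 to 69948149 (reverse strand, 11 exons), and *Slc2a9* on chromosome 5 from 38349273 to 38480306 (reverse strand, 12 exons).

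For 5 of the genes no stretch of 51 bases, the length of a read, occurred in a transcript of another gene. The exceptions were *Slc5a2*, *Slc5a10* and *Slc2a1*, each through a gene on the opposite strand. *Slc5a2* shares 597 exon bases, 26.2% of its transcript, with *BC017158*, which had 9.78 CPM. *Slc5a10* shares 393 exon bases with *Fam83g*, at 3.52 CPM, and *Slc2a1* shares 105 with *Gm12868*, which has no entry under that name. The libraries keep strand, but whether the counting used it is not given in the sources used here, and without it reads of such pairs cannot be told apart. No 51-base stretch was shared among the 8 genes.

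The miRNAs of the floxed cluster silence transcripts through short matches, mostly in the 3′-UTR, to their seed, bases 2 to 8 from the 5′ end. They are shown because the 2 genotypes differ in this cluster, with the RefSeq sequences of GRCm38.p6, the seed in capitals, and members of a seed family next to each other. All lie on the forward strand of chromosome 14, from 115043684 for the first base of miR-17-5p to 115044496 for the last of miR-92a-3p.
miR-17-5p: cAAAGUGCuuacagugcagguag
miR-20a-5p: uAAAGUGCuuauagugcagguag
miR-18a-5p: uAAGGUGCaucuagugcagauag
miR-19a-3p: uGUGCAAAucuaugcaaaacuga
miR-19b-3p: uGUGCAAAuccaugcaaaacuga
miR-92a-3p: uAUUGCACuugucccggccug

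Of the 8 glucose transporter genes, *Slc5a10* and *Slc2a4* held a match to a seed of the cluster in the 3′-UTR of the RefSeq transcript, in each case 1 match to the seed shared by miR-17 and miR-20a (GCACTTT on the sense strand). Such a match was found in 11.0% of the GENCODE 3′-UTRs of 18919 genes. The match of *Slc5a10* lies at positions 187 to 193 of a 3′-UTR of 223 nucleotides (mm10 chromosome 11, 61672812 to 61672818, reverse strand). That of *Slc2a4* lies at positions 60 to 66 of 826 nucleotides (mm10 chromosome 11, 69943303 to 69943309, reverse strand). The matches are shown in capitals with the bases around them.
*Slc5a10*: tttcaaaaataGCACTTTaaacaaagtcag
*Slc2a4*: tttcctctacaGCACTTTagccctctcttc

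The other 6 genes held no match to that seed, nor to the match of miR-18a (written GCACCTT), of miR-19 (written TTTGCAC) or of miR-92a (written GTGCAAT), each searched on the sense strand. Among them were *Slc2a2*, with the longest 3′-UTR of 3883 nucleotides, *Slc5a1* with 1868 and *Slc2a9* with 1810, against a median of 785 over all 18919. Any of the 4 seed matches was present in 26.4% of all 3′-UTRs. A match is a description of the sequence and says nothing of whether a miRNA acts there, and the levels above, pooled over both genotypes, do not bear on it.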

How the data were processed

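RNA of 6 kidneys was sequenced by the authors as 51-base single-end reads, which were trimmed and mapped to mm10 with TopHat2 2.0.12 and the iGenomes annotation, and alignments with a mapping quality under 10 were dropped. The submitters' processing notes also name bcl2fastq 1.8.4, Cufflinks, featureCounts of Subread 1.4.6 and edgeR 3.2.4. The deposited log2 values are the authors' mean log2 CPM of each transcript over both groups. Other columns of the table hold the authors' own comparison of the groups (log2 fold change, likelihood ratio, p-value and adjusted p-value) and were not used, so no test was made. A planned test on single kidneys was conditional on such values and was not run.

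CPM was obtained as 2 to the power of the deposited value. CPM summed to 1007270 over 54721 entries, a sum that the scaling sets and that does not show whether reads were counted more than once. In 68.9% of 8470 genes with at least 2 entries and 1 CPM, the entries lay within 1.5 times of each other. Reads of a gene with several entries may therefore be counted in each. The lowest mean, 0.0263 CPM, was shared by 4617 entries, and low means include a prior count. Length, exons and 3′-UTRs came from GENCODE release M21 (GRCm38, the assembly of mm10) through RefSeq identifiers, which matched 26086 of 27012 RefSeq mRNA entries. For levels per kilobase, a gene was represented by its RefSeq mRNA entry with the highest mean, because assembled entries have no length here. Where the highest, median or summed entries were used instead, the level was divided by the length of that same RefSeq transcript. Every member and every gene of the fixed lists could be named, and some genes of these lists are not reported here. The members and lists were chosen with earlier results of these data known. Python 3.11.15, numpy 2.4.6 and pandas 2.3.3 were used.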

Additional observations from a re-analysis of the deposited data

How the results depend on the processing

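With no spread between kidneys, a value was taken to have moved when it changed by more than 1.5 times. Summing the entries of each gene changed the ratio of *Slc5a2* to *Slc5a1* per kilobase from 5.86 to 12.1, and coding length changed it to 3.23. The ratio of *Slc2a2* to *Slc2a1* went from 0.652 to 2.48 with summed entries and to 1.05 with coding length, which turned its direction. Both ratios stayed within 1.5 times with the highest entry of any kind and with the median entry. For *Slc5a2* and *Slc5a1* the highest entry was the RefSeq entry already used. Taking the longest transcript or subtracting the lowest level could not move either ratio. The RefSeq transcripts of these genes were already the longest, and 0.0263 CPM is small beside their levels. Summed entries also put 6 of the 8 genes in another place in the order per kilobase, and coding length 2, and summing counts shared reads more than once by its construction. *Slc5a2* was first under every setting tried. Of the levels in CPM, 27 stayed within 1.5 times and 5, all with summed entries, were higher. Of the levels per kilobase, 37 stayed and 11 were higher. These counts include settings that could not move a value, since *Slc5a1*, *Slc2a1* and *Slc2a5* have a single entry each. The share of genes below *Slc2a9* was 19.6% with the filter of 1 CPM. No paired analysis was possible because the table holds no value of a single kidney, and for the same reason no replicate could be left out.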

Other observations

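The enzymes that receive or make glucose in these cells were also measured, as a mean over the 6 kidneys of both genotypes. The 3 gluconeogenic genes fixed for reading stood high, with 279 CPM per kilobase for *Pck1*, 149 for *Fbp1* and 48.5 for *G6pc*, which makes the free glucose that leaves through GLUT2. *G6pc* was thus near *Slc5a2*, at 47.5. *Hk1*, the hexokinase of most tissues, had 26.4, and *Hk2*, the form known best from muscle and fat, had 0.744. *Khk*, which phosphorylates fructose, had 46.3, above *Slc5a10* and *Slc2a5*. *Sgk1*, a kinase induced by aldosterone that acts on sodium and glucose transport, had 49.6. The sugar carrier *Slc50a1* had 6.74, close to *Slc2a5* at 6.15.

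Of the remaining family genes, *Slc5a11* (4.11), *Slc5a6* (3.21) and *Slc5a9* (2.39 CPM per kilobase) stood between *Slc5a1* and *Slc2a9*, and *Slc2a13*, *Slc2a6* and *Slc2a10* (0.809, 0.348 and 0.292) below *Slc2a9*. *Slc5a4a* was listed at the lowest mean level in its RefSeq entry, whereas another of its 4 entries had 0.998 CPM. The macrophage genes *Cd68* and *Emr1* had 5.19 and 4.49 CPM.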
